A study of Mus musculus with 92 samples.

Results

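Bulk RNA sequencing of mouse ER-Hoxb8 cells was compared between day 0 and day 4 of differentiation, with 3 libraries of each day. These 6 libraries, of 92 in the series, were chosen by their labels: ER-Hoxb8 progenitors, and ER-Hoxb8 cells grown for 4 days in vitro. ER-Hoxb8 cells are bone marrow progenitors that were immortalized with a virus carrying Hoxb8 fused to the hormone-binding part of the estrogen receptor. Both groups came from FVB mice that carried Cas9 on one allele (Cas9 het), and no guide or drug was used in either. Progenitors were kept in beta-estradiol and GM-CSF. Day 4 cells were grown with M-CSF (CSF1) and without both of these, so the loss of estrogen, the change of growth factor, the change of medium and the days in culture cannot be told apart. The study describes 3 biologically independent lines and states 3 biological replicates for each of these groups. The labels give only a replicate number and do not tie a library to a line. The p-values therefore measure the spread between these samples, which may be technical in part.

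While estrogen is present, the Hoxb8 fusion protein enters the nucleus and holds myeloid progenitors in a dividing, immature state. When estrogen is removed the block is lifted, and M-CSF, acting through its receptor Csf1r, carries the cells towards macrophages. Along this path progenitors shut down the primary granule proteins and the growth program of dividing cells, and take up genes for lysosomes, phagocytosis and immune sensing.

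All values are log2 CPM (normalized by the authors; CPM gives counts out of 1 M counts), in which a difference of 1 is a 2-fold difference. The lowest value, given to a gene without counts, was -4.34 in these libraries. Depth was 39.5, 49.0 and 40.7 M counts in day 0 replicates 1, 2 and 3, and 44.5, 40.0 and 35.8 M at day 4. It was estimated from the worth of 1 count in each library, and with it 1 CPM equals between 33.2 and 48.3 counts.

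The 3 day 0 libraries were unlike each other, and the library labelled day 0 replicate 2 lay among the day 4 libraries. Over the 10524 genes tested, its Euclidean distance to day 4 replicate 2 was 46.0 log2 units, with a Spearman correlation of 0.99 across genes. That was the shortest of the 15 distances among the 6 libraries, and shorter than between any replicates of BM progenitors (53.7 to 84.5) or BM monocytes (76.3 to 82.2), the groups isolated from bone marrow of FVB WT mice, not Cas9 het, and normalized together with these libraries. Its distances to day 4 replicates 1 and 3 were 84.7 and 105.2, within the range of the day 4 libraries among themselves (83.9 to 105.2). To day 0 replicates 1 and 3 it stood at 154.1 and 184.8, and those libraries were 151.6 apart. Day 4 and day 0 differed by at least 2-fold for 3021 genes between the libraries numbered 1, for 3242 between those numbered 3, and for 268 between those numbered 2. Over the genes with a mean above 100 CPM the difference between day 0 replicate 2 and day 4 replicate 2 had an SD of 0.20, against 0.028 from counting error, which leaves out noise of library preparation. How day 0 replicate 2 came to lie there was not tested, and results are given for each library.

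**Figure D1:**
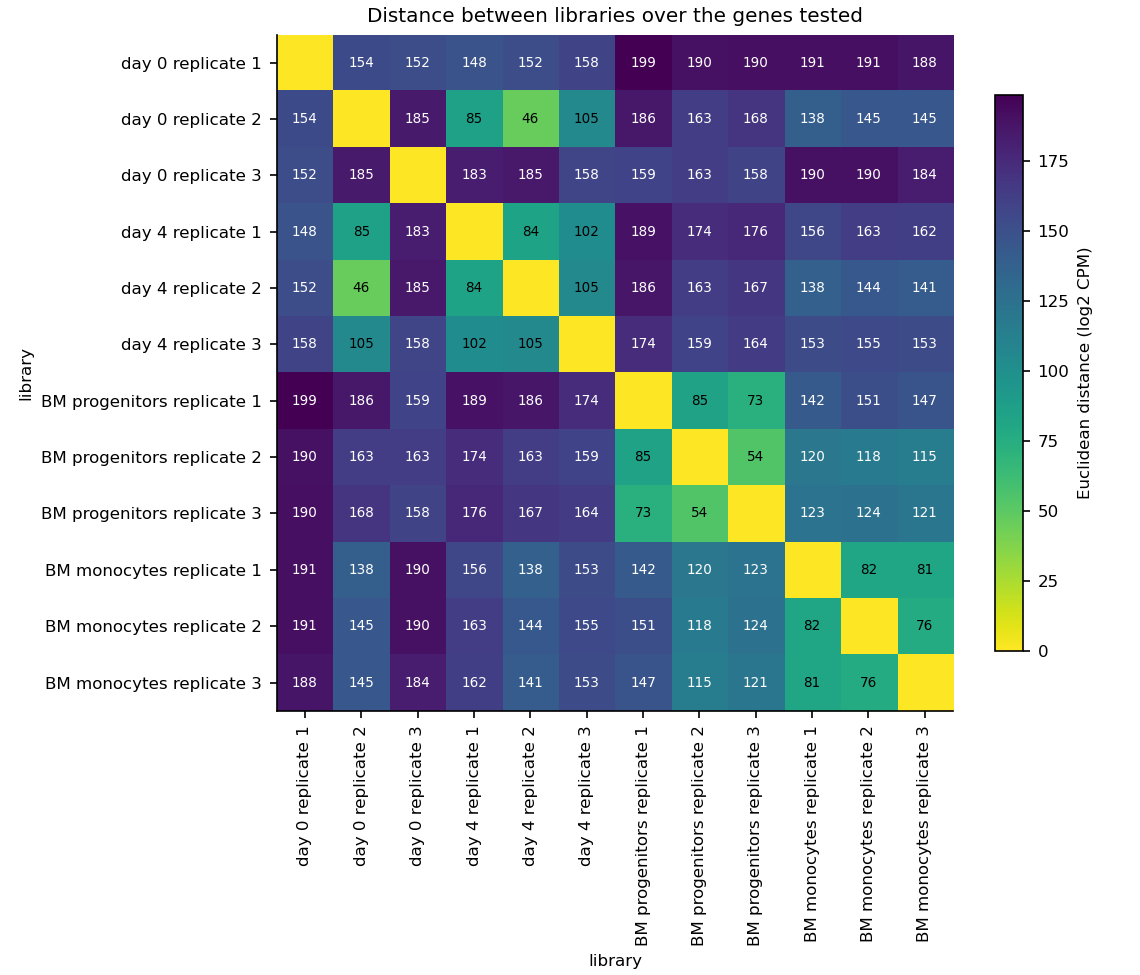
Euclidean distance in log2 CPM between each pair of 12 libraries over the 10524 genes tested, with libraries on both axes and the distance printed in each cell. Day 0 replicate 2 was 46.0 from day 4 replicate 2 and 154.1 and 184.8 from the other day 0 libraries.

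The line itself could be checked on Hoxb8, which is carried by the virus. Hoxb8 was -2.08, -1.83 and 0.33 in day 0 replicates 1, 2 and 3, and -0.34, -2.24 and 1.19 at day 4. It was at the lowest value in all 3 libraries of BM progenitors and all 3 of BM monocytes, so each of the 6 libraries held the transcript at a low level that overlapped between the days. Kit, the receptor for stem cell factor and a mark of progenitors, was 5.03, -0.76 and 1.67 at day 0, against 7.02 to 8.13 in BM progenitors. At day 4 Kit was 4.30, -1.15 and -1.80, so the days overlapped and all 3 day 0 libraries were below BM progenitors. Within each replicate number Kit was lower at day 4. Defining stem cell genes were low in every library, with Meis1 between -3.17 and -2.19 and Hoxa9 at or near the lowest value.

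No gene passed the test of day 4 against day 0. In the linear fits of limma, which borrow variance across genes, 0 of 10524 genes (0%) had a Benjamini-Hochberg adjusted p below 0.05. Differentially expressed genes (DEGs), which must also have a log2 fold change (log2FC) above 2 or below -2, were therefore 0 in number. The lowest adjusted p was 0.891. At an unadjusted p below 0.05 there were 315 genes (2.99%), fewer than the share that this limit allows by itself. The size of the differences was not small, since 466 genes reached that log2FC, but the day 0 libraries spread as widely. With the replicate number as a block, DEGs remained at 0 and the count at an unadjusted p below 0.05 was 628. Groups did not overlap for 727 genes (6.91%), below the share of 0.1 that 3 against 3 libraries give by their order alone. Day 4 was higher for 334 (3.17%) and lower for 393 (3.73%). Counts of list members further on are to be read against these shares.

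The count of DEGs depended on 1 library. Without day 0 replicate 2, 186 of 10311 genes (1.8%) were DEGs, of which 136 were higher at day 4 (1.32%) and 50 lower (0.485%). With 2 libraries left at day 0, the filter of 3 libraries above 1 CPM keeps genes that are on at day 4 alone and drops those on at day 0 alone; with no filter 67 were higher and 45 lower. That library was set aside because of its values, so these calls describe the other 5 libraries and are not an independent test. With the replicate number as a block there were 0 DEGs in these 5 libraries (lowest adjusted p 0.061). The calls also leaned on each library: 0 DEGs were left without day 4 replicate 2 as well (1042 genes at an unadjusted p below 0.05), 3 without day 4 replicate 1 and 32 without day 4 replicate 3. Without day 0 replicate 3 there were 483, and without day 0 replicate 1 there were 781. In those last fits a single day 0 library is assumed to vary like the day 4 libraries. In all 186 genes day 0 replicate 2 was nearer to the day 4 mean than to the mean of the other day 0 libraries, and in 102 it lay within the day 4 range. These genes were called only once that library was left out, so its place in them was largely set by that choice.

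**Figure D2:**
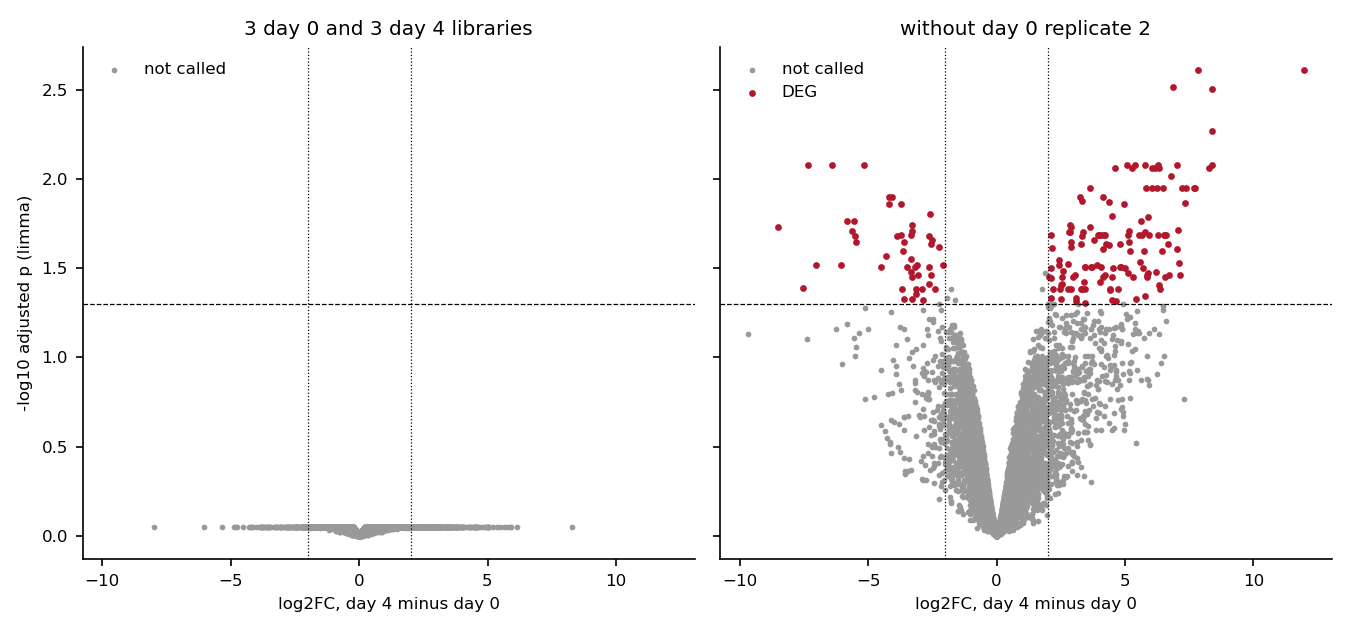
The log2FC of day 4 minus day 0 (horizontal axis) against -log10 of the limma adjusted p (vertical axis) for each gene tested, with all 6 libraries (left) and without day 0 replicate 2 (right); dashed and dotted lines mark the limits of 0.05 and of 2. With 6 libraries all points lie along the bottom of the plot, and without day 0 replicate 2 the 186 DEGs lie above the dashed line.

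On average, macrophage identity genes separated day 0 replicates 1 and 3 from the other libraries. Their mean over 13 genes was 6.51, 8.82 and 4.55 in day 0 replicates 1, 2 and 3, and 8.82, 8.87 and 8.33 at day 4. In this mean, day 0 replicates 1 and 3 were below all of the day 4 libraries and day 0 replicate 2 was level with them. Not every member went this way: within the numbers 1, 2 and 3, day 4 was above day 0 for 10, 8 and 12 of the 13. In bulk RNA, fewer cells of a type and less RNA per cell cannot be told apart. Of the 13 genes, 12 had a log2FC above 0 and the median log2FC was 1.06, against -0.02 over all genes tested, with 0 DEGs. Groups did not overlap for 2 of them, Cd68 and Msr1, both higher at day 4 (3.17% of all genes). When day 0 replicate 2 was left out, 3 of 13 were DEGs, all higher (1.32% of all genes), and the median was 2.08; without day 0 replicate 3 it was 0.68.

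Cx3cr1, the fractalkine receptor, was 0.64, 8.95 and 0.74 at day 0 and 8.52, 8.90 and 9.86 at day 4. Msr1, a scavenger receptor, was 1.26, 8.39 and 0.81 at day 0 and 8.52, 8.77 and 9.31 at day 4. Trem2, a lipid-sensing receptor of macrophages, was 3.61, 9.73 and 1.59 at day 0 and 10.60, 9.82 and 9.47 at day 4. All 3 genes were high in day 0 replicate 2 and in the day 4 libraries, and low in day 0 replicates 1 and 3; the groups were apart for Msr1 and overlapped for the others. Their log2FC was 5.65 ± 2.12 (SE), 5.38 ± 1.88 and 4.99 ± 1.88 (limma adjusted p = 0.891 each). These 3 genes were the DEGs of the list without day 0 replicate 2, with a log2FC of 8.40, 7.83 and 7.36.

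Csf1r, the receptor for M-CSF, was 7.75, 10.45 and 3.10 at day 0 and 10.22, 10.40 and 9.79 at day 4. Here day 0 replicate 1 took a middle place, day 0 replicate 3 was low, and the groups overlapped. Cd68, a lysosomal membrane protein of macrophages, was 10.49, 10.82 and 6.38 at day 0 and 12.09, 10.95 and 10.96 at day 4, with day 0 replicate 3 the low library. Aif1, an actin-binding protein of macrophages, was 1.18, 4.30 and -1.18 at day 0 and 3.44, 4.57 and 2.98 at day 4, with overlap through day 0 replicate 2. Some other members of the list differed less. Itgam, Cd14 and Fcgr3 had a log2FC of 1.06, 0.80 and 0.68. Without day 0 replicate 3 it was -0.28, 0.11 and -0.50, and without day 0 replicate 1 it was 1.39, 1.43 and 1.38. Emr1, which encodes F4/80, was 7.20, 9.51 and 8.36 at day 0 and 9.63, 9.54 and 8.78 at day 4, and was thus high in all 6 libraries. Ptprc, which encodes the pan-leukocyte antigen CD45, lay between 8.81 and 9.57 throughout. Mertk, a receptor for dying cells, was 3.16, 4.86 and 1.98 at day 0 and 4.37 and 4.65 in day 4 replicates 1 and 2, with its lowest value in day 4 replicate 3. Tlr4, the sensor of endotoxin, was the member with a log2FC below 0 (-0.35), as it was 9.13 in day 0 replicate 1 and 7.63 to 8.18 at day 4.

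**Figure D3:**
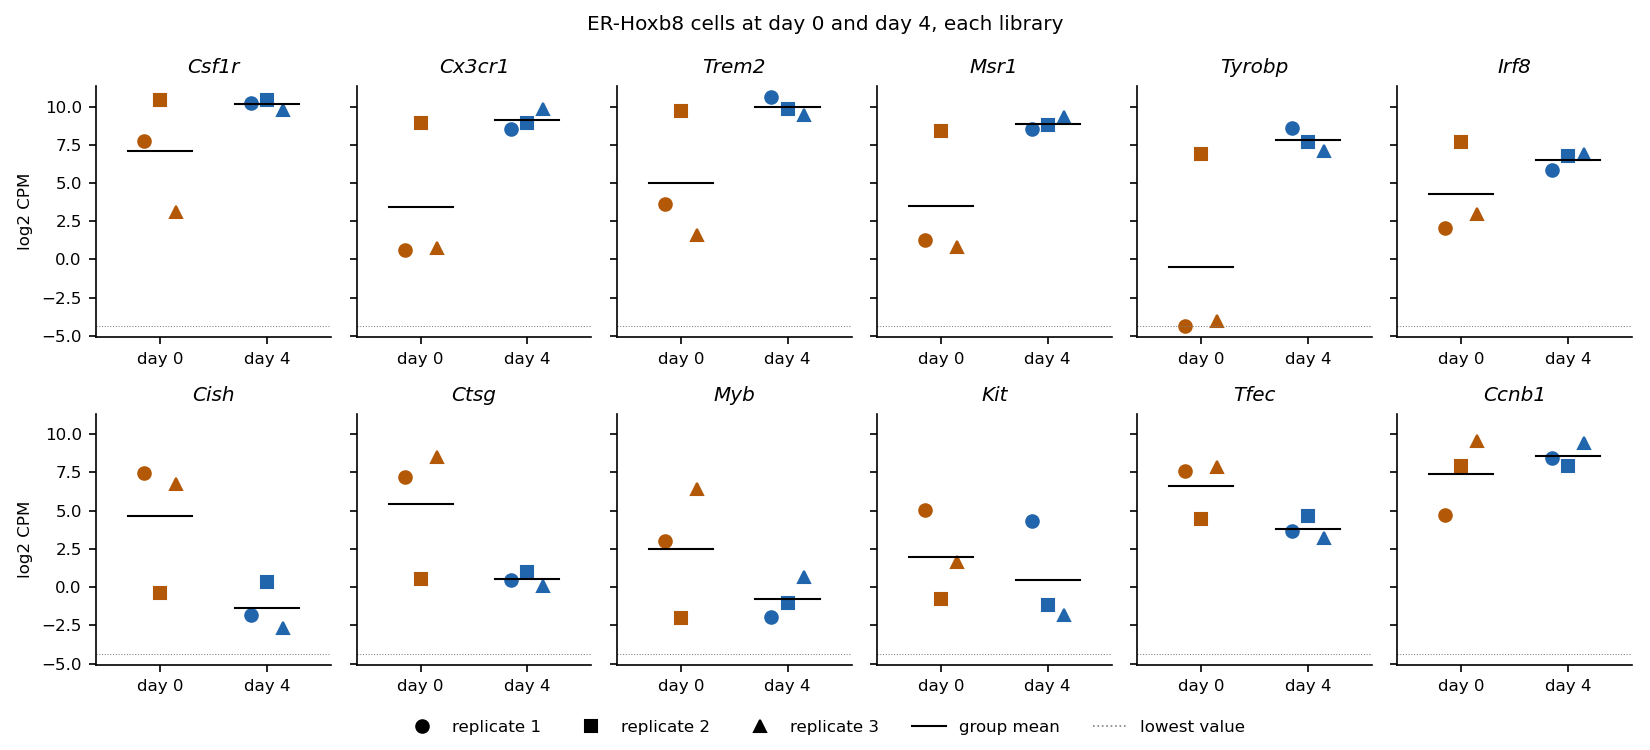
Log2 CPM (vertical axis) of 12 genes in each of the 6 libraries at day 0 and day 4; symbols give the replicate number, lines the group means and the dotted line the lowest value. Day 0 replicate 2 (square) lies with the day 4 libraries for Cx3cr1, Trem2, Msr1, Cish and Ctsg.

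Uptake and clearance genes were likewise lowest in day 0 replicates 3 and 1. Their mean was 4.17, 6.33 and 2.25 at day 0 and 6.30, 6.45 and 5.69 at day 4, and 18 of the 20 tested members had a log2FC above 0 (median 1.90, and 0.53 without day 0 replicate 3). Groups were apart for 4, with day 4 higher (Msr1, Tyrobp, Itgb5 and Cd300lb; 3.17% of all genes), and 4 were DEGs, all higher, without day 0 replicate 2 (1.32% of all). Tyrobp encodes DAP12, the signalling adaptor of Trem2. It was -4.34, 6.89 and -4.02 at day 0 and 8.61, 7.69 and 7.09 at day 4, so it was at or near the lowest value in day 0 replicates 1 and 3 and well expressed elsewhere. Its log2FC of 8.28 ± 2.83 was the largest among genes whose groups did not overlap, but it depends on the offset of the authors for genes without counts. As log2(CPM + 1) it was 5.49, below 5.61 for the cyclin gene Ccnd1. Spp1, the secreted protein osteopontin, had the highest mean of the list and was 13.15, 12.27 and 9.10 at day 0 and 12.90, 12.60 and 14.49 at day 4, with overlap. Among 15 tested Fc receptor and complement genes, 11 had a log2FC above 0 (median 0.95, and -0.04 without day 0 replicate 3) and Cfp, which encodes properdin, was apart. C3ar1, the receptor for C3a, was 2.81, 8.14 and 1.95 at day 0 and 9.04, 8.05 and 8.90 at day 4, again with day 0 replicate 2 at the level of day 4.

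Of 24 macrophage transcription factors tested, 20 had a log2FC above 0 (median 0.81, 0.17 without day 0 replicate 3 and 1.37 without day 0 replicate 2). Irf8, which sets the monocyte lineage against neutrophils, was 2.07, 7.68 and 2.99 at day 0 and 5.84, 6.75 and 6.90 at day 4. It was low in day 0 replicates 1 and 3 and highest in day 0 replicate 2, so the groups overlapped. Tfec, of the MiT family of lysosomal regulators, had the lowest log2FC of the list. It was 7.57, 4.48 and 7.84 at day 0 and 3.66, 4.63 and 3.18 at day 4. Of 23 factors tested without day 0 replicate 2, 6 were DEGs higher (1.32% of all genes) and 2 lower (0.485%) at day 4, Tfec among the latter.

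Genes of the immature state went the other way in day 0 replicates 1 and 3. Primary granule genes, most of which encode proteins of promyelocytes, averaged 5.14, 3.10 and 8.17 at day 0 and 2.76, 3.59 and 3.32 at day 4. Day 0 replicate 3 was the highest, day 0 replicate 1 came next, and day 0 replicate 2 lay within the day 4 range. Of 10 genes, 9 had a log2FC below 0 (median -2.14, -1.15 without day 0 replicate 3 and -3.73 without day 0 replicate 2), yet for 0 of 10 were the groups apart (3.73% of all genes, day 4 lower). Ctsg, the protease cathepsin G, was 7.20, 0.54 and 8.50 at day 0 and 0.47, 0.99 and 0.09 at day 4. Mpo, the myeloperoxidase of the same granules, was 4.40, 2.77 and 11.20 at day 0 and 3.39, 4.13 and 4.34 at day 4, so it stood out in day 0 replicate 3 and not in replicate 1. Prtn3, another granule protease, was 7.23, 2.14 and 10.37 at day 0 and 1.21, 2.70 and 1.37 at day 4. Both day 0 replicates 1 and 3 were above all day 4 libraries for Ctsg and Prtn3. The fit without day 0 replicate 2 had 3 of 10 as DEGs lower at day 4 (0.485% of all genes; Ctsg with a log2FC of -7.33), and 1 higher (1.32%), the lectin receptor Clec12a.

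STAT5 target genes report on GM-CSF signalling, which acts through JAK2 and STAT5. Cish, a feedback inhibitor of that pathway, was 7.50, -0.36 and 6.76 at day 0 and -1.82, 0.33 and -2.71 at day 4. It was high in day 0 replicates 1 and 3, and low in day 0 replicate 2 as in every day 4 library. Its log2FC was -6.03 ± 2.06 with 6 libraries and -8.52 without day 0 replicate 2, where it was a DEG (limma adjusted p = 0.0186). Socs2, a second feedback inhibitor, was 6.15, -0.55 and 5.38 at day 0 and -1.70, -0.64 and -0.93 at day 4, and had too few libraries above 1 CPM to be tested. Of the 6 members tested, 5 had a log2FC below 0 (median -0.65, and 0.16 without day 0 replicate 1). Bcl2l1, which encodes the survival protein BCL-XL, went the other way, with 8.54, 9.14 and 6.64 at day 0 and 9.07 to 10.45 at day 4. GM-CSF culture genes, found in cells that are matured with GM-CSF, had 4 of 7 tested members above 0 and a median of 0.22 (-0.78 without day 0 replicate 3). Pparg, a factor that GM-CSF maintains in alveolar macrophages, was 5.92, 3.26 and 6.22 at day 0 and 3.26 to 3.81 at day 4.

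Progenitor genes were few and low. Their mean over all 15 was 0.78, -0.15 and 1.76 at day 0 and -0.29, -0.12 and 0.16 at day 4, so day 0 replicates 1 and 3 were above all day 4 libraries and replicate 2 lay within their range. Of the 15, 7 were tested and 4 of these had a log2FC above 0 (median 0.11, 0.96 without day 0 replicate 3 and 0.30 without day 0 replicate 2), with 0 apart. Myb, a factor needed by dividing progenitors, was 3.00, -2.03 and 6.42 at day 0 and -1.95, -1.06 and 0.64 at day 4. It was above all day 4 libraries in day 0 replicates 1 and 3, and below all of them in day 0 replicate 2. Cd34 was -1.42, 4.21 and 0.38 at day 0 and -0.42, 4.11 and 3.39 at day 4, and so was highest in the libraries numbered 2. Of 13 cytokine receptors tested, 10 had a log2FC above 0 (median 1.05, 0.29 without day 0 replicate 3 and 1.82 without day 0 replicate 2), with 0 apart. Without day 0 replicate 2, 1 of the 13 was a DEG, higher at day 4 (1.32% of all genes).

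Lysosomal genes were among the most abundant transcripts. Their mean was 8.06, 8.73 and 6.43 at day 0 and 8.94, 8.71 and 7.88 at day 4, with day 0 replicate 3 lowest and day 4 replicate 3 below day 0 replicate 1. Of 35 tested members 31 had a log2FC above 0, with a median of 0.48 and 0 groups apart. It was 0.78 without day 0 replicate 2 and 0.00 without day 0 replicate 3, so the latter library carried most of it. Ctsd, the protease cathepsin D, had the highest mean, with 14.78, 13.92 and 10.55 at day 0 and 14.98, 13.80 and 12.64 at day 4. Ctss, cathepsin S, had the largest log2FC (3.62 ± 1.55), with 7.14, 11.96 and 5.30 at day 0 and 11.14 to 12.26 at day 4. Promoters are shown because 31 of 35 members had the same sign of log2FC; Atp6v0d1, in the windows below, is 1 of the 4 others. The palindrome TCACGTGA is the core of the element that TFEB and related factors bind in lysosomal genes. In the RefSeq promoters (250 bases before to 50 after the start, GRCm38.p6) it was found in 5 of the 27 members with a promoter in the table (18.5%), and in 304 of 27025 genes in all (1.12%). The 5 windows of 30 bases below give it in capitals, each on the strand of its gene.
Ctsd, chr7:142387908-142387937, minus strand: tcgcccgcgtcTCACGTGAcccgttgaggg
Ctsa, chr2:164833749-164833778, plus strand: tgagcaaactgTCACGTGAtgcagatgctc
Atp6v1a, chr16:44139373-44139402, minus strand: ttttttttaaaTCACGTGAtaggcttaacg
Atp6v0d1, chr8:105566050-105566079, minus strand: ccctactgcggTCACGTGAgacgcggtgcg
Mcoln1, chr8:3500462-3500491, plus strand: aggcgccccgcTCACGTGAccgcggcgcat
The longer TCACGTGAC, which overlaps it, was in 4 of 27 (14.8%, against 0.895% of all). GAGGAAGT, a PU.1 motif, was in 3 of 27 lysosomal promoters (11.1%) and in 0 of 8 of macrophage identity genes, against 3.69% of all. A match is a description of letters and not of binding.

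Mitosis genes separated the libraries in another way. Their mean over 26 genes was 2.81 in day 0 replicate 1, against 6.25 and 7.17 in day 0 replicates 2 and 3 and 6.49, 6.22 and 7.41 at day 4. Day 0 replicate 1 alone was low, and all of the day 4 libraries were at the level of the other 2 day 0 libraries. All 26 genes had a log2FC above 0 (median 1.23), but without day 0 replicate 1 the median was -0.05, so that library set the direction. Ccnb1, the cyclin of mitotic entry, was 4.71, 7.93 and 9.59 at day 0 and 8.46, 7.95 and 9.41 at day 4. Cenpf, a kinetochore protein, was -0.41, 5.98 and 5.93 at day 0 and 6.16, 6.05 and 7.04 at day 4, and was the member whose groups were apart. DNA replication genes had the same low library, with means of 4.34, 5.34 and 7.00 at day 0 and 6.00, 5.34 and 6.84 at day 4. Of 28, 25 had a log2FC above 0 (median 0.47, and -0.10 without day 0 replicate 1), with 0 apart. Transcripts of dividing cells were therefore present at day 4. The NTC macrophages described further on, which were grown for 7 days, had means of 1.35 and 1.48 for the mitosis genes.

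Mitosis genes share the letters TTTGAA (the cell cycle homology region) and CCAAT (bound by NF-Y) near their starts. TTTGAA was in 15 of 21 members with a promoter in the table (71.4%) against 20.2% of all genes, and CCAAT in 19 of 21 (90.5%) against 41.1%. The first match of TTTGAA, in capitals, is shown for the 5 of these with the highest mean level.
Top2a, chr11:99024351-99024380, minus strand: ctattggtccatTTTGAAgattctcccgcc
Prc1, chr7:80294434-80294463, plus strand: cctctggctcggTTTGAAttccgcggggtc
Plk1, chr7:122159453-122159482, plus strand: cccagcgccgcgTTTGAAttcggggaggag
Ccnb2, chr9:70421704-70421733, minus strand: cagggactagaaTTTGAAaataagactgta
Cdk1, chr10:69352966-69352995, minus strand: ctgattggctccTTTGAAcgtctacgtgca
For replication genes, the E2F motifs TTTGGCGC and TTTCGCGC were each in 5 of 23 promoters (21.7%), against 0.585% and 0.374% of all. The sterol element TCACCCCAC was in 1 of 12 promoters of sterol synthesis genes (8.33%) and in 0.614% of all.

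Among cell cycle inhibitors and D cyclins, 7 of 14 tested members had a log2FC above 0 (median 0.17, -0.22 without day 0 replicate 3 and 0.48 without day 0 replicate 2). Ccnd1, the D cyclin that M-CSF induces, was 1.95, 8.75 and 0.81 at day 0 and 10.35, 8.77 and 10.16 at day 4. It was low in day 0 replicates 1 and 3 and above 8 in the other 4 libraries, with a log2FC of 5.92 ± 1.93. Cdk6, a partner of D cyclins in progenitors, was 8.89, 6.59 and 9.45 at day 0 and 6.95, 6.62 and 8.50 at day 4. Of 20 ribosome biogenesis genes 18 had a log2FC below 0 (median -0.78, -0.34 without day 0 replicate 3 and -1.37 without day 0 replicate 2), and Fbl and Rrp12 were apart, both lower at day 4 (3.73% of all genes). Their mean was 6.30, 5.25 and 7.48 at day 0 and 5.29, 5.28 and 6.13 at day 4. Ncl, the nucleolar protein nucleolin, was 9.74, 8.33 and 11.18 at day 0 and 8.41, 8.29 and 9.25 at day 4.

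**Figure D4:**
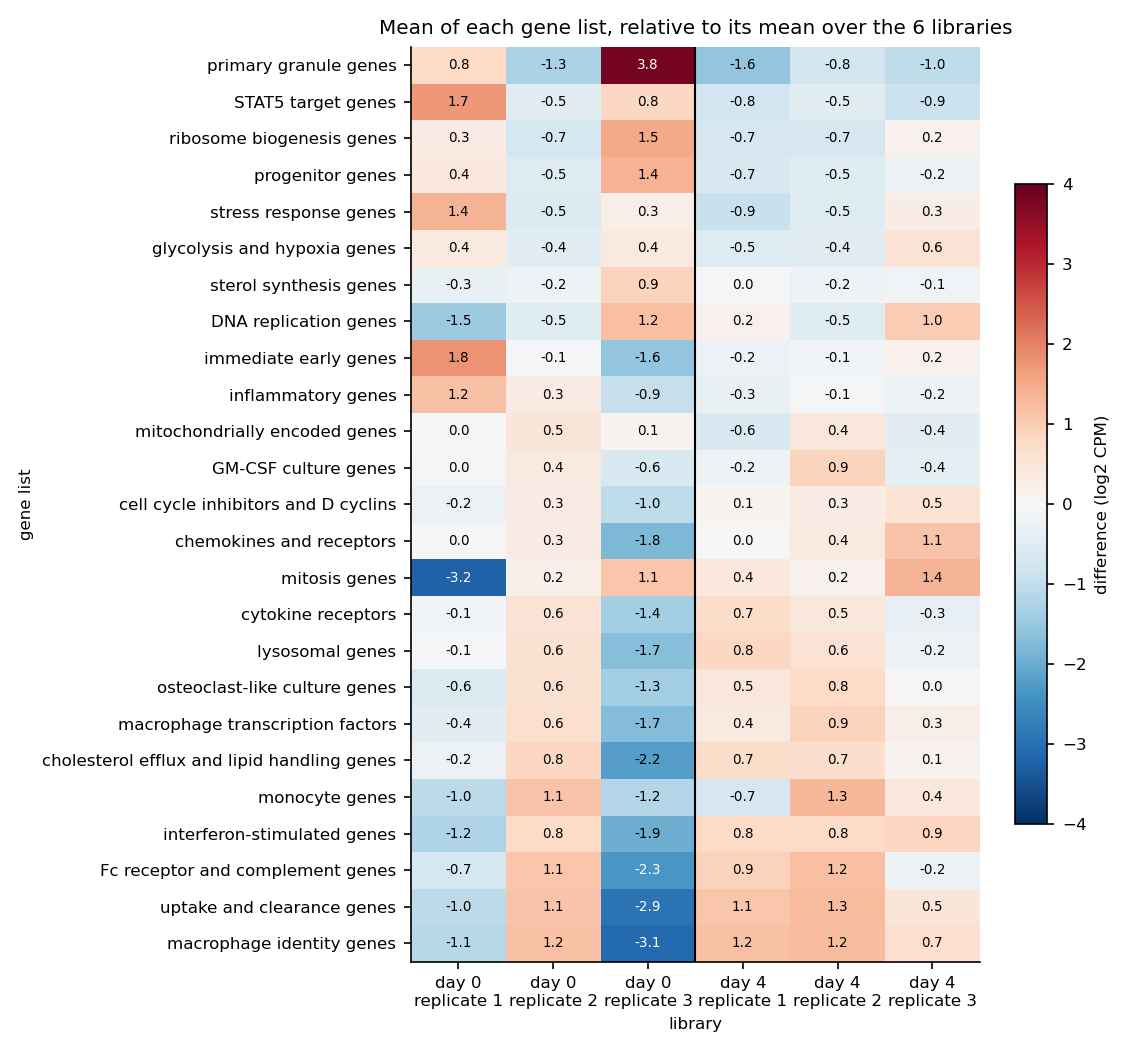
Mean log2 CPM of each of 25 gene lists (rows) in each of the 6 libraries (columns), relative to the mean of that list over the 6. Macrophage identity genes are low in day 0 replicates 1 and 3 (means of 6.51 and 4.55), primary granule genes high in day 0 replicate 3 (8.17) and mitosis genes low in day 0 replicate 1 (2.81).

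Day 0 replicate 1 stood apart in stress genes as well. The mean of stress response genes was 6.79 there, against 4.91 and 5.70 in day 0 replicates 2 and 3 and 4.56, 4.92 and 5.75 at day 4. Trib3, which is induced by the transcription factor ATF4 when amino acids run short, was 9.73 in day 0 replicate 1, and 0.86 to 3.42 in the other 5 libraries. Of 17 stress genes tested 13 had a log2FC below 0 (median -0.80, -0.10 without day 0 replicate 1 and -1.43 without day 0 replicate 2), and Sesn2 was apart, with day 4 lower. Day 0 replicate 1 thus carried most of the direction. Immediate early genes were also highest there, with means of 3.40, 1.54 and 0.01 at day 0 and 1.37 to 1.75 at day 4. Fos was 8.79, 5.54 and 1.89 at day 0 and 5.95, 5.61 and 6.86 at day 4. For immediate early genes 5 of 11 were above 0 (median -0.37, -0.24 without day 0 replicate 2 and 0.93 without day 0 replicate 1), and Jun was apart, with day 4 higher. The part of culture state or handling in these values was not tested.

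Metabolic lists had no common direction. Of 19 sterol synthesis genes 14 had a log2FC below 0 (median -0.20, and 0.20 without day 0 replicate 3), and Mvd, the mevalonate decarboxylase, was apart with 6.89, 5.68 and 7.18 at day 0 and 5.48, 5.60 and 4.52 at day 4. Of 19 glycolysis and hypoxia genes 12 were below 0, with a median of -0.10 that was 0.09 without day 4 replicate 1, so no direction held; Hk2 was apart, with day 4 higher. Of 14 genes of cholesterol efflux and lipid handling 12 were above 0 (median 0.97, 0.17 without day 0 replicate 3 and 1.69 without day 0 replicate 2). Lgmn, a lysosomal protease, was 4.21, 9.36 and 2.32 at day 0 and 10.04, 9.46 and 9.72 at day 4, the only member of that list whose groups did not overlap. Plin2, the coat of lipid droplets, was 13.71 in day 0 replicate 1, and 8.72 to 11.72 in the others.

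Interferon-stimulated genes had 4 members whose groups were apart, Ifit1, Irf9, Oas1a and Usp18, among 20 tested (day 4 higher, 3.17% of all genes). Of the 20, 18 had a log2FC above 0 (median 1.38, and 0.71 without day 0 replicate 3). Ifit1, which binds foreign RNA ends, was -0.30, 2.49 and -1.30 at day 0 and 3.21, 2.75 and 3.38 at day 4. Oas1a, a sensor of double-stranded RNA, was 5.91, 6.95 and 5.32 at day 0 and 7.66, 7.05 and 7.24 at day 4. Day 0 replicate 2 was again the day 0 library nearest to day 4, here just below it. Cxcl10 had the lowest log2FC of the list, with 0.87, -1.39 and 3.19 at day 0 and -1.18, -0.52 and 1.71 at day 4.

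Of 15 chemokines and receptors tested, 10 had a log2FC above 0 (median 0.41, but 1.48 without day 0 replicate 2 and 1.75 without day 0 replicate 1). Ccl2, Ccl5 and Ccl7 were apart, and all were higher at day 4 (3.17% of all genes). Ccl2, the monocyte attractant, was 3.86, 4.97 and -0.21 at day 0 and 8.16, 5.42 and 9.62 at day 4, where the day 4 libraries themselves differed. Ccl6 was 13.52 in day 0 replicate 1 and 5.84 in day 0 replicate 3, with 10.69 in replicate 2 and 9.67 to 10.97 at day 4. Of 10 inflammatory genes 6 were above 0 (median 0.04, -0.92 without day 0 replicate 3 and 0.10 without day 0 replicate 2) and Tnf was apart. Of 10 genes of osteoclast-like cultures 7 were above 0 (median 0.75, 0.25 without day 0 replicate 3 and 1.39 without day 0 replicate 2), and Tnfrsf11a, the receptor for RANKL, was apart. Of 17 monocyte genes 10 were above 0 (median 0.42, -0.55 without day 4 replicate 2 and 0.82 without day 0 replicate 2), with S100a10 apart. Ly6c2, a mark of classical monocytes, was 6.37, 6.82 and 8.29 at day 0 and 4.09, 7.19 and 6.20 at day 4, with overlap.

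Markers of other cell types were also measured, and their place in the differences was not tested. The 13 neutrophil markers summed to 583, 469 and 140 CPM at day 0 and 112, 507 and 156 CPM at day 4. In day 0 replicate 1 Lcn2 made up 511 CPM of this sum. Mmp8 was the most abundant in day 0 replicates 2 and 3 (265 and 117 CPM) and day 4 replicate 2, and Csf3r in day 4 replicates 1 and 3, while Ly6g, Retnlg and Stfa2l1 were at or below 1 CPM in all 6 libraries. Basophil and mast cell markers (4 of 11 above 1 CPM in any library) summed to 3.94 to 13.9 CPM, with Prss34 the most abundant in all but day 0 replicate 3 and Cpa3 and Fcer1a at or below 1 CPM. Eosinophil markers (3 of 8) summed to 35.7, 24.5 and 5.40 CPM at day 0 and 0.519, 27.4 and 1.55 CPM at day 4, led by Ear2 in all but day 4 replicate 1, with Epx and Prg2 at or below 1 CPM. Erythroid and megakaryocyte markers (6 of 12) summed to 4.39 to 13.9 CPM, with Ppbp at 6.03 CPM in day 0 replicate 1, no member above 3.41 CPM in the others, and Gata1 and Klf1 at or below 1 CPM; Car1 was apart. Lymphoid markers (2 of 12) summed to 2.47, 36.4 and 3.27 CPM at day 0 and 28.0, 38.7 and 10.9 CPM at day 4. The most abundant in day 4 replicates 1 and 3 was Il7r, which was at or near the lowest value in day 0 replicates 1 and 3. In the other libraries it was Cd79b, with 18.9 CPM in day 0 replicate 2 and 19 CPM in day 4 replicate 2. Cd3e was at or below 1 CPM. Dendritic cell markers (5 of 10) summed to 55.0 to 160 CPM, led by Bst2, an interferon-induced gene, in all but day 4 replicate 3, with Xcr1 and Clec9a at or below 1 CPM. Stroma markers (2 of 10) summed to 3.75 to 11.6 CPM, led by Pecam1, with the collagen genes at or below 1 CPM. The exact two-sided permutation p for these 7 sums lay between 0.3 and 0.9, where 3 against 3 libraries cannot go below 0.1. That test leaves out the replicate numbers. Within each of the numbers 1, 2 and 3 the lymphoid and dendritic cell sums were higher at day 4. The dendritic cell sums were 121, 83.2 and 55.0 CPM at day 0 and 160, 104 and 94.3 CPM at day 4. The other sums went both ways. The mitochondrially encoded genes took 0.61%, 1.06% and 0.88% of CPM at day 0 and 0.43%, 1.05% and 0.63% at day 4 (exact permutation p = 0.6), so the groups overlapped. Within each replicate number this share was lower at day 4. All of their 12 tested genes had a log2FC below 0 (median -0.37, -0.08 without day 4 replicate 1 and -0.14 without day 0 replicate 2), with 0 apart.

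Outside these lists, the largest differences among genes whose groups were apart and whose unadjusted p was below 0.05 are no DEGs. Efr3b, which anchors a lipid kinase at the plasma membrane, was at the lowest value in all 3 day 0 libraries. It was 1.40, 0.33 and 3.67 at day 4. Against 3 counts in a day 0 library the lowest day 4 library is at least 13.4-fold higher, and the day 4 mean, which replicate 3 carries, at least 60.8-fold. Unlike most of these genes, it also differed between the libraries numbered 2. Gbp4, an interferon-induced GTPase, was 6.52, 2.19 and 8.16 at day 0 and -4.33, -4.34 and 1.62 at day 4, and the differences within the numbers 1, 2 and 3 were -10.85, -6.53 and -6.54. Those within the numbers 1 and 2 depend on the offset of the authors, since Gbp4 was at or near the lowest value in these day 4 libraries. Baz2a, a subunit of the remodeller that silences ribosomal DNA, was 4.01, 3.77 and 3.83 at day 0 and 2.33, 0.34 and -3.95 at day 4. Here the day 0 libraries were alike and the spread lay at day 4. The other genes higher at day 4 were Tnfsf9, Gm10039, Sdc4, Cadps and Fcrl1, with a log2FC from 5.01 to 5.88. Those lower were Ffar2, Ttpa, Gbp6, Mfsd7c, Gpd1, Rbpms2, Mmp13 and Lppr3, with a log2FC from -4.24 to -3.05. In each of these 13 genes day 0 replicate 2 was nearer to the day 4 mean than the day 0 mean was. Over all genes tested, 8 were at least 2-fold higher and 12 at least 2-fold lower at day 4 within each of the 3 numbers. Of these, 2 and 4 are named here (Efr3b and Gm10039; Baz2a, Gbp4, Mfsd7c and Rbpms2).

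**Figure D5:**
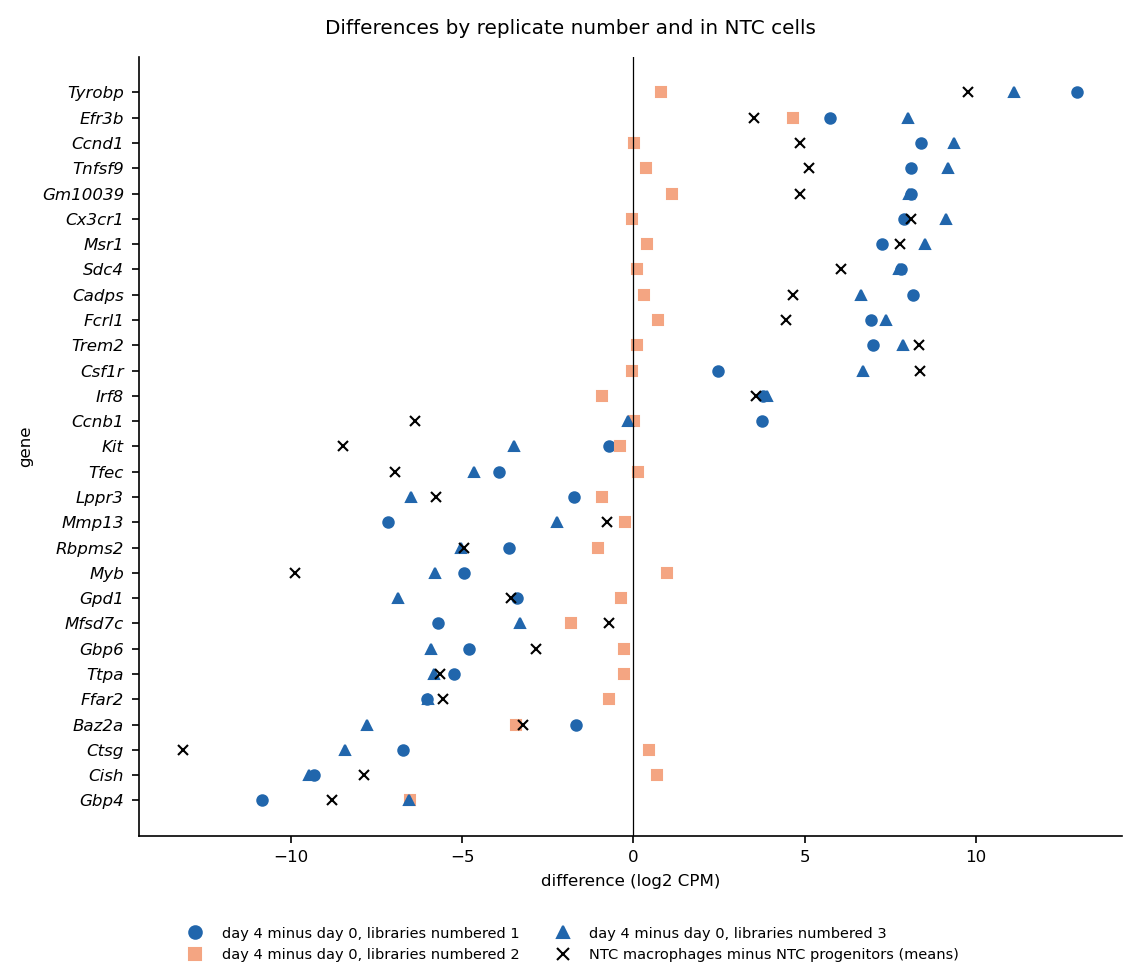
Differences in log2 CPM (horizontal axis) for named genes (vertical axis): day 4 minus day 0 within each replicate number, and the mean of NTC macrophages minus the mean of NTC progenitors. The squares, for the libraries numbered 2, lie near 0 for most genes, with Efr3b at 4.67 and Gbp4 at -6.53 among the exceptions. Both of these values depend on the offset of the authors.

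The series holds a second differentiation of ER-Hoxb8 cells, in libraries of its own. NTC cells are Cas9 het ER-Hoxb8 progenitors transduced with a control guide, and NTC macrophages were grown for 7 days in place of 4. Of the 3 macrophage libraries, 2 share the normalization of the 3 NTC progenitor libraries and were compared with them, so days, guide and normalization differ from the comparison above. The NTC progenitors were close to each other, with primary granule means of 9.02, 9.12 and 8.95 and macrophage identity means of 4.71, 4.10 and 4.18. On these lists day 0 replicate 3 (8.17 and 4.55) was the nearest of the day 0 libraries and day 0 replicate 2 (3.10 and 8.82) the farthest, with the caveat of separate normalization. Of 10147 genes tested with limma, 2105 (20.7%) were DEGs, 822 higher (8.1%) and 1283 lower (12.6%) in macrophages. The filter drops genes that are on in the 2 macrophage libraries alone; the counts were 1365 and 1575 with no filter, and 1168 and 1330 with all 3 macrophage libraries. Macrophage identity genes had 11 of 13 DEGs higher (median 4.15), lysosomal genes 20 of 34 higher (median 2.15), and primary granule genes 7 of 10 lower and 1 higher (median -11.05). Of 9 progenitor genes tested 5 were lower (median -6.02). Of mitosis genes 26 of 26 were lower (median -5.62), a direction that the day 4 libraries did not have. The median over all genes was -0.13.

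Single genes stood as follows in the NTC cells. Cish was 6.57, 6.46 and 6.66 in progenitors and -1.33 and -1.25 in macrophages. Ctsg was 10.76, 10.91 and 10.65 in progenitors and -2.16 and -2.56 in macrophages. Cx3cr1 was 0.24, -1.01 and -0.39 in progenitors and 7.66 and 7.78 in macrophages, and in each of these 3 genes the groups were far apart. Tyrobp was at the lowest value of that set (-3.43) in all 3 progenitor libraries and 5.81 and 6.89 in macrophages. It was not tested there, since a gene that is on in 2 libraries alone does not meet the filter of 3 libraries above 1 CPM. Of the 186 DEGs found without day 0 replicate 2, 136 were tested in NTC cells. Of these 113 were DEGs there in the same direction and 0 in the other, where 20.7% of all genes tested were DEGs (8.1% higher, 12.6% lower). That is 113 of 186 and 113 of 2105 genes of the lists. The 186 genes were picked for a large log2FC after a library unlike the NTC progenitors had been dropped. The share over all genes is therefore no matched background, and the overlap is no independent test of these calls. Mboat1 and Ttc39b, 2 of the 136, had the other sign of log2FC in NTC cells.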

How the data were processed

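Per the methods of the study, reads were trimmed with fastp, assigned with kallisto 0.46.0 to mouse transcripts, summed to genes with tximport and normalized with the TMM method. The values were deposited by the authors as log2 CPM with a small offset (0.0493 CPM in these libraries). Of 29957 entries in the table, 1 lacks a gene name and was not used; all 92 columns matched a sample. CPM was rebuilt by removing the offset. Depth was taken from the most frequent low CPM value of each library, read as 1 count, and covers counting error only. A gene was tested if 3 or more of the 6 libraries had more than 1 CPM, with limma 3.58.1 in R 4.3.3 (eBayes with trend), adjusted over all genes tested. Python 3.11.15 (pandas 2.3.3, numpy 2.4.6) wrote the tables.

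Libraries with equal replicate numbers deviated together from their group means (correlation over genes of 0.23, 0.39 and 0.47), so the numbers may pair the samples. With 3 libraries per day this check cannot settle the pairing, and the likeness of both libraries numbered 2 may add to it. The labels do not say whether a number marks a line. The fit with the replicate number as a block is therefore given as an alternative. Members and the 32 gene lists were chosen with earlier results of these data known. Named genes were taken from the 10 largest log2FC in each direction among DEGs or, where DEGs were lacking, among genes with an unadjusted p below 0.05 whose groups do not overlap; the macrophage identity genes with Kit and Hoxb8; and from each list the member with the highest mean, largest and smallest log2FC. Other genes in the text are list members that were named after their values were seen.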

Additional observations from a re-analysis of the deposited data

How the results depend on the processing

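The count of 0 DEGs was the same with no filter, a mean CPM above 5, log2(CPM + 1), quantile normalization, equal medians, no trend, library weights, 12 libraries as 4 groups, the replicate block and a log2FC limit of 1. Leaving out 1 library gave 0 to 186 DEGs and 0 to 191 genes with an adjusted p below 0.05, all from the fit without day 0 replicate 2. Without both libraries numbered 2 (added after the data were seen) it was 0. Genes with an unadjusted p below 0.05 numbered 630 with no filter (19302 genes tested), 1323 with library weights, 999 with 12 libraries, 628 with the replicate block, 1042 without both libraries numbered 2, and 75 to 1942 without 1 library. Genes whose groups do not overlap numbered 1228 with no filter, 4629 without both libraries numbered 2 and 1256 to 3953 without 1 library, where fewer samples overlap less. Without day 0 replicate 2, DEGs were 0 with the replicate block, 112 with no filter and 604 with 11 libraries as 4 groups, and 0 to 781 without 1 further library; the cause was not tested. DEGs of NTC cells were 2073 with the replicate block and 1639 to 2139 without 1 library. The distance between both libraries numbered 2 was 0.304 of the median of the 15 pairs, 0.221 over genes with a mean CPM above 5 and 0.0744 as 1 minus the Spearman correlation, and was the shortest each time. Of 109 named genes with a log2FC, 10 changed sign under an alternative that keeps all 6 libraries and 30 without 1 library. Of 32 list medians, 6 and 13 did. Beyond the counts given, the block changed no call. Depth limits genes at a few counts (1 count is 0.0207 to 0.0302 CPM).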
